A study of Mus musculus with 10 samples.

Results

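Cholinergic neurons of the medial habenula were compared with the neurons of the same kind that gave no trace of the cholinergic genes, within the same tissue pools. Nuclei were taken as medial habenula neurons when their deposited cluster name named neurons, more than 1000 genes were detected, and unique molecular identifiers (UMIs, 1 per captured RNA molecule) were counted for at least 3 of the 5 genes Tac2, Pou4f1, Chrnb3, Nwd2 and Robo3. Of 20503 nuclei in the 10 libraries, 10307 were neurons with more than 1000 genes and 738 of these passed the gate. Nuclei with 2 or more UMIs of Chat plus Slc5a7 were called cholinergic (492 nuclei), nuclei with 0 of both were called non-cholinergic (145 nuclei), and 101 nuclei with 1 UMI belonged to neither group. All but 5 of the gated nuclei, 733 of 738, lay in a single deposited neuron cluster of 917 neurons, numbered 6 by the submitters.

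The libraries came from single nuclei of tissue punches aimed at the thalamic paraventricular nucleus (PVT), a midline structure beside the habenula. Each was made from C57BL/6J mice of 12 weeks with no transgene or treatment, and the study's methods give pools of 4 mice per sample. Of the 10 libraries, 6 are labelled female, and the sex of the other 4 stands only in the deposited table of nuclei, where it is male. How much habenula a punch held was not controlled, so the number of gated nuclei per library reflects the cut as well as the tissue.

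The medial habenula is a small epithalamic nucleus whose axons run through the fasciculus retroflexus to the interpeduncular nucleus of the midbrain. Its ventral neurons release acetylcholine together with glutamate, its dorsal neurons make substance P, and both parts carry nicotinic receptors rich in the alpha3 and beta4 subunits. Acetylcholine is made by choline acetyltransferase (Chat) from choline that the high-affinity transporter Slc5a7 brings back into the terminal, and is loaded into vesicles by Slc18a3.

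Promoter sequences are shown for the 2 genes that set the groups and for a gene that differed in each direction. They were taken from RefSeq (build GRCm38.p6), run from 250 bases before the gene's start to 50 after it, and are written 5′ to 3′ on the gene's own strand. Capitals mark the letters CANNTG, the E-box of basic helix-loop-helix factors, and TAATTA, a core bound by many homeodomain factors. Both motifs read the same on either strand. Chat lies at chr14:32465860-32466159 (minus strand), Slc5a7 at chr17:54298985-54299284 (minus strand), Lmo3, which was higher in cholinergic nuclei, at chr6:138581919-138582218 (minus strand), and Tac1, which was lower, at chr6:7554811-7555110 (plus strand).
Chat: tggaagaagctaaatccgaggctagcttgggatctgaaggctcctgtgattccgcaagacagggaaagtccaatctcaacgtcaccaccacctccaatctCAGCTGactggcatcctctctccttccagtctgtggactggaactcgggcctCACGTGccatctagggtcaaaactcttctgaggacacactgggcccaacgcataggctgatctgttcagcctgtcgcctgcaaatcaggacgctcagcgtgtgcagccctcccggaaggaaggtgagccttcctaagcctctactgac
Slc5a7: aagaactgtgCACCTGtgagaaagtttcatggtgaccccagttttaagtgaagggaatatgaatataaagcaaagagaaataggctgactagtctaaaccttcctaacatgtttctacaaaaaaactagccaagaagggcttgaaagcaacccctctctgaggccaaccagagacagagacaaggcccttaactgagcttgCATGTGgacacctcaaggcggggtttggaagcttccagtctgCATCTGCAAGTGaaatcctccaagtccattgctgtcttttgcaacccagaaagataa
Lmo3: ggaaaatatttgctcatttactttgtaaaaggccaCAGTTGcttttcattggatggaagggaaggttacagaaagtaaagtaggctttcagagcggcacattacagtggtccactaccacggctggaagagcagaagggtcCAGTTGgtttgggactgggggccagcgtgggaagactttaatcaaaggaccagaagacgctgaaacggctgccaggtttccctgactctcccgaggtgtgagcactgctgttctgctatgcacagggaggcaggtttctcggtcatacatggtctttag
Tac1: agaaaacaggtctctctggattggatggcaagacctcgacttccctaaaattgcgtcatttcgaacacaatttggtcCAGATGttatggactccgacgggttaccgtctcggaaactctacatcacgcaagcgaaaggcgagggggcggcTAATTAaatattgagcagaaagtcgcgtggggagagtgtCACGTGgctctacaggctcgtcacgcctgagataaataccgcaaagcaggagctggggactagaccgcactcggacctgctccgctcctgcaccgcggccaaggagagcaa
TAATTA was present in the Tac1 window and in 5.29% of all 32851 promoter windows of the table. CANNTG was present in all 4 windows shown and in 72.3% of all windows. Among the 15 genes with the highest fold change that are described below, 13 had windows in the table, and 1 of their 22 windows held TAATTA. Among the 15 with the lowest fold change, all 15 had windows, and 2 of their 19 held it.

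The groups were chosen by the UMIs of Chat and Slc5a7, and the gate was selected on the UMIs of the 5 genes named above. Values of these 7 genes describe the groups and were not tested in the gated nuclei. The 5 gate genes were tested only in the deposited cluster, as given below. Chat and Slc5a7 UMIs together reached 42 in a nucleus, with a median of 6 in cholinergic nuclei. Both genes had UMIs in 404 of the 492 cholinergic nuclei, Chat alone in 52 and Slc5a7 alone in 36. Just inside the threshold were 75 nuclei with exactly 2 UMIs, whose median total was 6527 UMIs, and just outside were the 101 nuclei with 1 UMI, whose median total was 5167. Nuclei with none of the cholinergic UMIs had a median total of 4950, and those with 3 or more a median of 10897. Nuclei outside the gate also reached this threshold. Counts of 2 or more UMIs were found in 36 of 7770 neurons with none of the 5 gate genes (0.463%, 95% exact binomial interval 0.325 to 0.641%, median 11281.5 UMIs), and in 2 of 2462 oligodendrocytes (0.0812%, interval 0.00984 to 0.293%, median 2321 UMIs). These intervals cover counting error only.

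Genes listed for the medial habenula outside the gate had UMIs in the gated nuclei as well. Of 13 such genes (among them Chrna3, Chrnb4, Etv1, Kctd8, Gng8 and Lrrc55), at least 2 had UMIs in 492 of 492 cholinergic and 144 of 145 non-cholinergic nuclei. Markers of GABAergic neurons were close to absent. At least 2 of 8 had UMIs in 1 cholinergic nucleus and in 0 of 145 non-cholinergic nuclei. A count of 0 of 145 allows a share of up to 2.07%. Genes listed for other neighbouring neurons were not absent. At least 2 of 10 lateral habenula genes had UMIs in 68.9% of cholinergic and 62.8% of non-cholinergic nuclei. For at least 2 of 9 thalamic markers the shares were 64.4 and 58.6%. All of these shares were taken without thinning, and cholinergic nuclei were deeper, at a median of 10206.5 against 4950 UMIs. As summed CPM, given below, the ranges of both lists lay lower in cholinergic sums, with overlap.

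The share of gated nuclei called cholinergic differed between libraries. It was 90.7% in male 1, 56.3% in male 2, 80.1% in male 3 and 78.7% in male 4. In the female libraries it was 45.6% (female 1), 45.7% (female 2), 45.2% (female 3), 49.1% (female 5) and 40.0% (female 6), and female 4 had 11 cholinergic of 22 gated nuclei. Every male library lay above every female library, but the male nuclei were also deeper, with a median in cholinergic nuclei of 8716 to 15410 UMIs against 4507 to 7015. When every gated nucleus was thinned to 2000 UMIs, the share with 2 or more UMIs lay between 23.4 and 31.7% in the male and between 16.7 and 24.2% in the female libraries, and the ranges overlapped only through male 2 and female 2. The share with any UMI of Chat or Slc5a7 overlapped between the 2 sets before thinning too, at 67.2% in male 2 against 71.0% in female 3 and 68.2% in female 4. Sex, depth, tissue cut and processing cannot be told apart between the 2 sets of libraries.

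**Figure D1:**
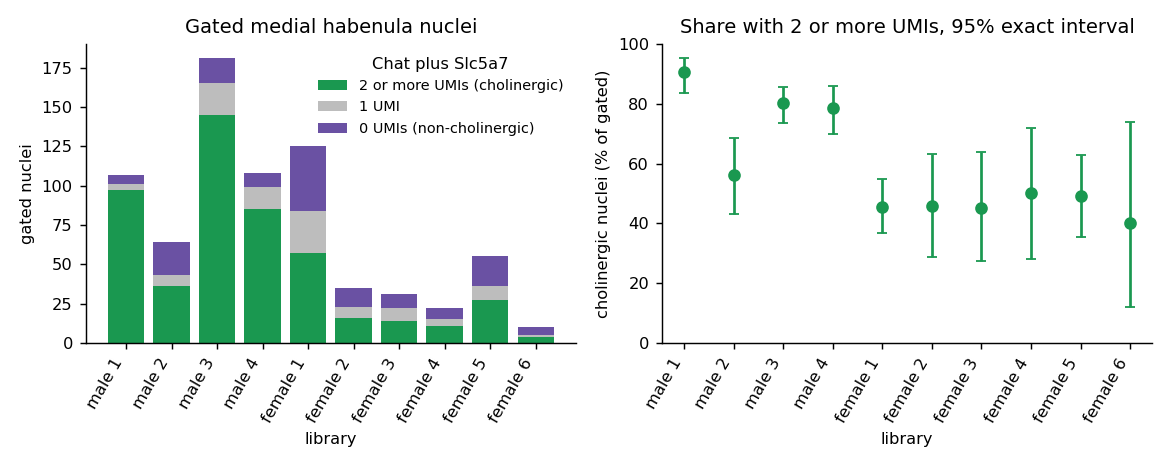
The left panel stacks, for each of the 10 libraries, the number of gated nuclei with 2 or more, 1 and 0 UMIs of Chat plus Slc5a7, and the right panel gives the percent of gated nuclei with 2 or more, with its 95% exact binomial interval. The 4 male libraries lie at 56.3 to 90.7% and none of the 6 female libraries lies above 50%.

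UMIs were summed over the nuclei of each group in each library, and a sum had to rest on 10 or more nuclei. This left 5 libraries with both groups: male 2 (36 cholinergic and 21 non-cholinergic nuclei), male 3 (145 and 16), female 1 (57 and 41), female 2 (16 and 12) and female 5 (27 and 19), in all 281 and 109 nuclei. The cholinergic sums held 85374 to 1697435 UMIs and the non-cholinergic sums 46387 to 214312. Levels are given as CPM, UMIs per 1000000 UMIs of the sum after scaling by the TMM method, with no correction for gene length. Each library served as its own control in edgeR's quasi-likelihood test, and a gene was called at an adjusted p under 0.05 with an absolute log2 fold change over 0.5. A positive log2 fold change means a higher level in cholinergic nuclei.

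Of 4111 genes tested, 215 (5.23%) were called higher and 222 (5.40%) lower in cholinergic nuclei, 10.6% in either direction, and the median log2 fold change over all 4111 was -0.01. The levels of both groups did not overlap across the 5 libraries for 157 genes higher in cholinergic nuclei (3.82%) and for 126 lower (3.06%). Genes called higher included the synaptic vesicle protein Synpr, the mechanically gated channel Piezo2, the transcriptional cofactor Lmo3 and the nicotinic subunits Chrna3 and Chrnb4. Genes called lower included the tachykinin precursor Tac1, the peptide Cck, the mu opioid receptor Oprm1, the phosphodiesterase Pde11a and the collagen Col16a1. Among these the groups overlapped for Chrna3 and Cck. A sum over nuclei does not tell fewer nuclei with a transcript from less of it in each nucleus. Nuclei of the non-cholinergic group were shallower in every library, with medians of 7975 against 8716 UMIs in male 2, 8129.5 against 11461 in male 3, 4075 against 6024 in female 1, 3178 against 4846 in female 2 and 4414 against 7015 in female 5. The median mitochondrial percent, taken from the deposited annotation of nuclei since the matrix holds 0 mitochondrial UMIs in male nuclei, moved in no common direction, at 1.16 in cholinergic against 2.01 in non-cholinergic nuclei of male 2, 0.213 against 0.233 in male 3, 1.78 against 1.75 in female 1, 1.86 against 1.96 in female 2 and 2.13 against 1.71 in female 5. With 109 depth-matched nuclei in each group, 198 of 2645 genes were called higher and 175 lower, of which 172 and 147 were among the calls above. The matching did not equalise depth in every library. Matched cholinergic nuclei kept medians of 4284.5 against 3178 UMIs in female 2 and 6404 against 4414 in female 5. The medians were closer in male 2 (8019 against 7975), male 3 (8163 against 8129.5) and female 1 (4377 against 4075).

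**Figure D2:**
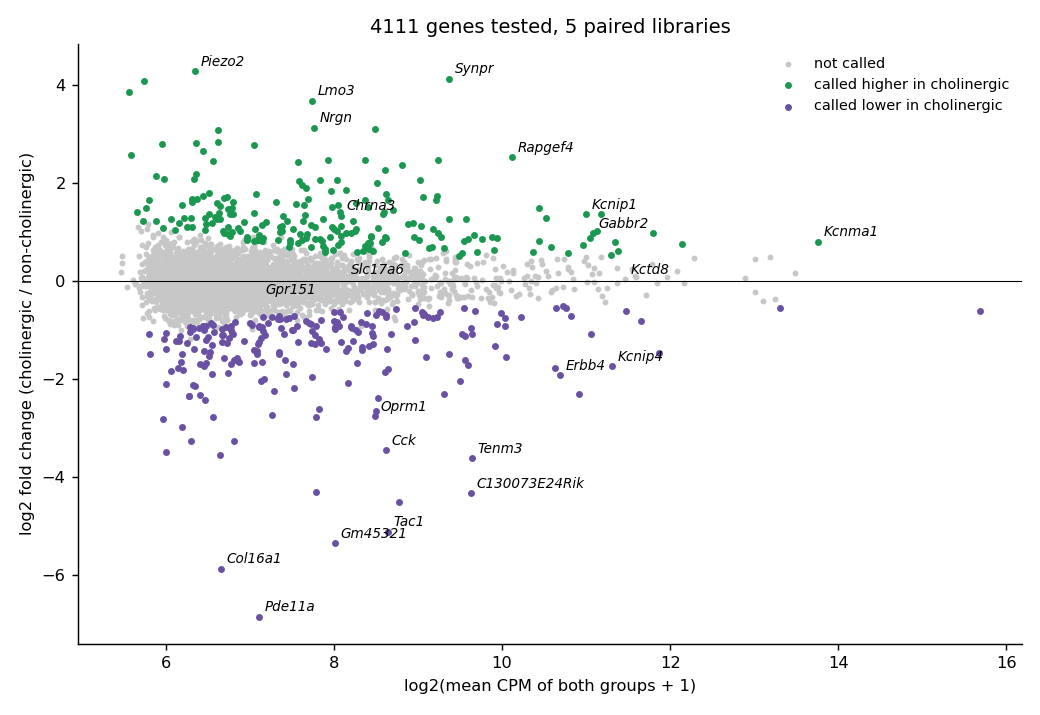
Each point is 1 of the 4111 genes tested, with log2 of its mean CPM over both groups plus 1 on the x axis and its log2 fold change between cholinergic and non-cholinergic nuclei on the y axis. Green points are the 215 genes called higher and purple points the 222 called lower, which reach down to -6.84 for Pde11a and up to 4.29 for Piezo2.

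Slc18a3, the vesicular acetylcholine transporter, lies inside the Chat gene (chr14:32462438-32464850, within Chat at chr14:32408203-32465989, both on the minus strand of GRCm38), so that reads could be split between them. It had 86 UMIs in the cholinergic sums and 2 in the non-cholinergic sums, all from male libraries. Its level was 63.3 and 44.8 CPM in the cholinergic sums of male 2 and male 3 against 0 and 19.4 in the non-cholinergic sums, and it was listed at 0 in all 6 female sums. Over nuclei of every kind it had 190 UMIs in the male and 0 in the female libraries, so that the female zeros cannot be told apart from a gene left out of the annotation used there. It did not pass the filter on low counts and was not tested.

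Of 15 other genes of acetylcholine synthesis, transport and breakdown, 6 were tested, 1 was called higher and none lower, with a median log2 fold change of 0.40. Over all genes tested, 5.23% were called higher and 5.40% lower, and every list count below stands beside these shares. The gene called was Prima1, the membrane anchor of acetylcholinesterase, at 142 ± 49.5 CPM (SD, n = 5 libraries) in cholinergic and 51.1 ± 25.2 CPM in non-cholinergic nuclei (log2 fold change 1.28 ± 0.33 SE, edgeR adjusted p = 0.0133). The call was lost without male 2 (0.90, edgeR adjusted p = 0.139) or without female 2 (1.19, edgeR adjusted p = 0.0516). It was also lost in the deposited cluster (0.68, edgeR adjusted p = 0.0887) and in the male libraries alone (1.71, 0.0917). A minimum of 5 or of 20 nuclei and DESeq2 lost it too. Acetylcholinesterase itself, Ache, had a log2 fold change of -0.58 ± 0.34 (edgeR adjusted p = 0.388).

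Nicotinic receptor subunits were higher in cholinergic nuclei where they could be tested. Chrnb4, the beta4 subunit, stood at 127, 146, 200.1, 145 and 165 CPM in the cholinergic sums of male 2, male 3, female 1, female 2 and female 5, against 40.8, 58.3, 79.8, 26.6 and 86.9 CPM in the non-cholinergic sums, with no overlap (log2 fold change 1.37 ± 0.26, edgeR adjusted p = 0.00106). Chrna3, the alpha3 subunit and its neighbour on chromosome 9, stood in the same order at 364, 343, 425, 246 and 470.4 CPM against 58.2, 243, 103, 186 and 261 CPM. It was higher in cholinergic nuclei in 5 of 5 libraries, although the groups overlapped through the female 2 and female 5 values (log2 fold change 1.34 ± 0.27, edgeR adjusted p = 0.00175). Of 18 subunits and chaperones listed, only these 2 and the chaperone Ric3 were tested, and Ric3 was not called (-0.50 ± 0.25, edgeR adjusted p = 0.298). Chrna5 had 7 UMIs in cholinergic and 0 in non-cholinergic sums, too few for a fold.

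Both groups carried glutamatergic genes. The vesicular glutamate transporter Slc17a6 was at 281 ± 23.0 CPM in cholinergic and 281 ± 41.2 CPM in non-cholinergic nuclei (log2 fold change 0.05 ± 0.18, edgeR adjusted p = 0.932). Slc17a7, the other vesicular glutamate transporter of the habenula, was at 372, 319, 473, 434 and 556 CPM in cholinergic sums, in the library order above, and at 163, 204, 331, 239 and 323 CPM in non-cholinergic sums. It was higher in each library, with ranges that just overlapped (log2 fold change 0.78 ± 0.18, edgeR adjusted p = 0.00576). The fold change was 0.08 with nuclei thinned to 2000 UMIs (edgeR adjusted p = 0.867), 0.70 in the female libraries alone (0.103), 0.98 in the male libraries alone (0.132) and 0.77 without the library block (0.0906), and the call was also lost with a minimum of 5 or of 20 nuclei. With depth-matched nuclei the fold change was 1.04 (edgeR adjusted p = 8.6e-04). After thinning to 2000 UMIs Slc17a7 had a UMI in 38.5% of cholinergic and 46.1% of non-cholinergic nuclei, the opposite order. These shares pool the nuclei of all 10 libraries with no pairing and were not tested. Of 16 genes of transmitter identity 4 were tested, 1 was called higher and none lower. Gad2, an enzyme of GABA synthesis, had 16 and 8 UMIs in all.

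The peptide genes Tac1 and Cck were far lower in cholinergic nuclei. Tac1, the precursor of substance P, stood at 2.64, 6.50, 65.9, 0 and 18.3 CPM in the cholinergic sums and at 1182, 126, 1397, 798 and 385 CPM in the non-cholinergic sums. Every non-cholinergic value lay above every cholinergic value (log2 fold change -5.11 ± 0.37, edgeR adjusted p = 6.6e-09). Cck, the cholecystokinin precursor, was at 44.9, 24.6, 111, 72.3 and 48.9 CPM against 1298, 87.5, 1038, 558 and 646 CPM. It was lower in cholinergic nuclei in each library, and the groups overlapped only through the low non-cholinergic value of male 3 (log2 fold change -3.45 ± 0.30, edgeR adjusted p = 6.5e-08). Of 39 neuropeptide genes listed, 7 were tested, 1 was called higher, 3 lower and 3 neither (all genes tested: 5.23% higher, 5.40% lower). The other lower gene was the granin Scg2 (-0.85 ± 0.21, edgeR adjusted p = 0.00827, and 0.0535 without male 3). The higher gene was the granin Chgb (0.86 ± 0.23, edgeR adjusted p = 0.0142, and 0.101 without female 5). Both granin calls were also lost without the library block, in the female or the male libraries alone and with a minimum of 20 nuclei. The Scg2 call was lost with no filter on low counts and with DESeq2 too. The Chgb call was lost with thinned nuclei and under a gate of 2 of the 5 genes too. Tac2, which encodes neurokinin B and belongs to the gate, was at 1443 ± 596 CPM in cholinergic and 2460 ± 1291 CPM in non-cholinergic sums.

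Among 49 neuropeptide receptors, 7 were tested, 1 was called higher and 4 lower (all genes tested: 5.23% higher, 5.40% lower). Oprm1, the mu opioid receptor, was at 103, 93.9, 77.3, 86.8 and 104 CPM in cholinergic sums and 809, 525, 604, 532 and 646 CPM in non-cholinergic sums. The groups lay far apart in each library (log2 fold change -2.75 ± 0.19, edgeR adjusted p = 4.4e-09). The relaxin-family receptor Rxfp2 (-3.25 ± 0.39, edgeR adjusted p = 6.7e-06), the orphan receptor Gpr139 (-2.43 ± 0.35, edgeR adjusted p = 4.7e-05) and Calcrl, the receptor component for CGRP and adrenomedullin (-1.27 ± 0.27, edgeR adjusted p = 0.00265), were lower too, though Calcrl turned to 0.08 under a gate of 2 of the 5 genes. Tacr1, the substance P receptor, was higher in cholinergic nuclei, at 235, 355, 248, 376 and 165 CPM against 52.4, 262, 79.8, 53.2 and 137 CPM (1.23 ± 0.28, edgeR adjusted p = 0.0047). The peptide Tac1 and its receptor Tacr1 thus differed in opposite directions between the groups in the 5 libraries compared. For Tacr1 the groups overlapped. The Tacr1 call was lost without the library block (1.21, edgeR adjusted p = 0.122), in the male libraries alone (1.16, 0.216) and with a minimum of 5 nuclei. Tacr3, the neurokinin B receptor, had 5 and 3 UMIs and was not tested, and the habenular orphan receptor Gpr151 was not called (-0.36 ± 0.27, edgeR adjusted p = 0.571).

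**Figure D3:**
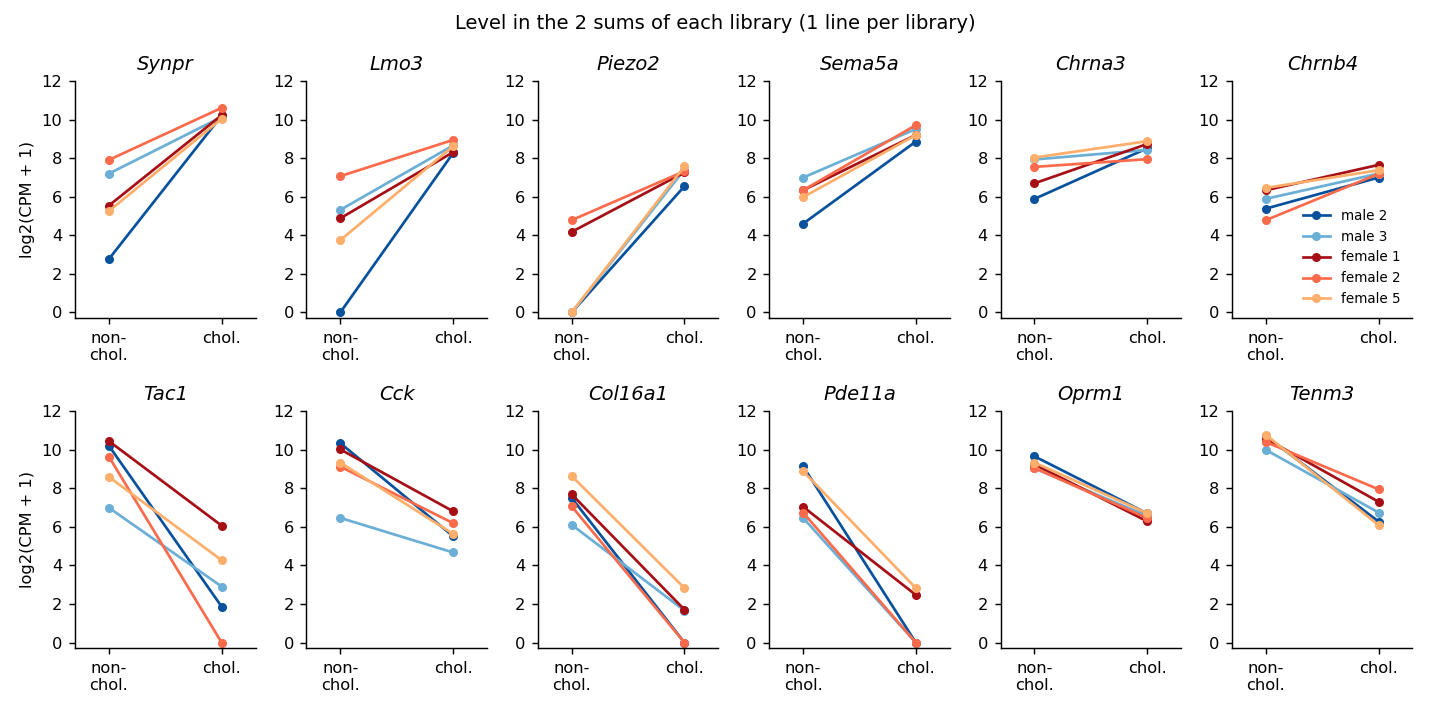
Each panel shows 1 gene and each line 1 of the 5 libraries, from its non-cholinergic to its cholinergic sum, on a scale of log2(CPM + 1). The 6 genes of the upper row rise and the 6 genes of the lower row fall along every line.

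The sum over 10 genes known from the dorsal medial habenula ran from 1274 to 4546 CPM in non-cholinergic and from 217 to 325 CPM in cholinergic sums. Of these genes 5 passed the filter on low counts, Tac1, Cck, Oprm1, Col16a1 and the calcium buffer Calb1. All but Oprm1, which was at 77.3 to 104 CPM in the cholinergic sums, did so through the group in which they were high. The shared direction of the 5 genes is therefore a description. Col16a1, a fibril-associated collagen, was at 0, 2.17, 2.27, 0 and 6.11 CPM in cholinergic sums and at 180.4, 68.0, 205, 133 and 397 CPM in non-cholinergic sums, with no overlap (-5.86 ± 0.42, edgeR adjusted p = 6.0e-09). Calb1 was at 28.7 ± 19.3 and 124 ± 50.5 CPM, also with no overlap (-2.33 ± 0.35, edgeR adjusted p = 8.9e-05). Taken per nucleus, at least 2 of the 10 genes had UMIs in 73.8% of non-cholinergic and 23.6% of cholinergic nuclei, and 18 of 145 non-cholinergic nuclei had none of the 10.

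Medial habenula genes outside the gate went both ways. Of 13 listed, 12 were tested, 6 were called higher and 2 lower, with a median of 0.68 (all genes tested: 5.23% higher, 5.40% lower). Higher were Lmo3, Lrrc55, Chrnb4, Chrna3, the ETS factor Etv1 (760 ± 46.8 against 395 ± 206 CPM, 1.07 ± 0.23, edgeR adjusted p = 0.00262) and the calcium-activated chloride channel Ano1 (982 ± 261 against 562 ± 154 CPM, 0.87 ± 0.18, edgeR adjusted p = 0.00181). Lower were the calcium buffer Calb2 (106 ± 24.9 against 468 ± 349 CPM, -2.08 ± 0.32, edgeR adjusted p = 1.1e-04) and the G-protein subunit Gng8 (-1.25 ± 0.30, edgeR adjusted p = 0.008, and 0.168 without male 2). The Gng8 call was also lost without the library block and in the female libraries alone. A gate of 2 of the 5 genes and a minimum of 20 nuclei lost it too. Kctd8, an auxiliary subunit of GABA-B receptors, was near the same level in both groups at 2887 ± 479 and 2772 ± 336 CPM (0.04 ± 0.12, edgeR adjusted p = 0.914). Nhlh2, with 58 and 31 UMIs, did not pass the filter.

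The gate held back any test of its own genes in the gated nuclei. These were tested among all neurons over 1000 genes of the deposited cluster. There 517 nuclei had 2 or more UMIs and 238 had 0 of Chat plus Slc5a7, and 9 libraries had both groups. Since 733 of the 738 gated nuclei lay in this cluster of 917 neurons, most nuclei were the same. The values below are therefore not independent of the gate. There, 470 of 2873 genes were called in either direction (16.4%). Chrnb3, the beta3 nicotinic subunit, was higher in cholinergic nuclei in 9 of 9 libraries, at 175 ± 64.5 against 51.5 ± 38.0 CPM (log2 fold change 2.08 ± 0.30, edgeR adjusted p = 2.3e-05). The axon guidance receptor Robo3 was higher in 8 of 9, at 807 ± 122 against 413 ± 215 CPM (1.04 ± 0.19, edgeR adjusted p = 2.7e-04). Tac2 was lower, with higher cholinergic values in 2 of 9 libraries (-0.58 ± 0.14, edgeR adjusted p = 0.00388). Nwd2 passed the adjusted threshold with a log2 fold change of 0.37 ± 0.09, under the fold required (edgeR adjusted p = 0.00568), and Pou4f1, the POU factor of habenula neurons, was not called (-0.13 ± 0.23, edgeR adjusted p = 0.793).

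Among calls with the same direction in every library and a mean of 20 CPM or more in the higher group, the 15 with the highest fold change were Piezo2, Synpr, Nfam1, Emid1, Lmo3, Nrgn, Sema5a, Igfbp7, Lamc3, Zeb2, Cacng5, Trhde, Ndst3, Fgf10 and Rapgef4. In none of them did the groups overlap, where 3.82% of all genes tested did not overlap in this direction. The genes were picked by fold change and shared direction in the same data, so this is a description. Genes near 0 in non-cholinergic sums, such as Piezo2, Nfam1 and Emid1, passed the filter on low counts through the cholinergic group. Synpr was at 1185, 1125, 1200.5, 1562 and 1057 CPM in cholinergic sums and at 5.82, 146, 45.6, 239 and 37.3 CPM in non-cholinergic sums (4.14 ± 0.34, edgeR adjusted p = 3.6e-08). Lmo3, a LIM-only cofactor, was at 306, 403, 316, 492 and 391 CPM against 0, 38.9, 28.5, 133 and 12.4 CPM (3.69 ± 0.37, edgeR adjusted p = 5.8e-07). For both genes the non-cholinergic sum of female 2 was the highest of its group.

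Piezo2 had 378 UMIs in cholinergic and 4 in non-cholinergic sums, at 92.4, 169, 152, 159 and 189 CPM against 0, 0, 17.1, 26.6 and 0 CPM (4.29 ± 0.50, edgeR adjusted p = 4.3e-06). Nfam1 and Emid1 each had 3 UMIs in non-cholinergic sums, for ratios of 16.7 (95% exact interval 5.64 to 81.7) and 15.01 (5.06 to 73.4), counting error only. Sema5a, a guidance cue with thrombospondin repeats, was at 642 ± 145 against 74.3 ± 37.2 CPM (3.12 ± 0.24, edgeR adjusted p = 1.5e-08). The calmodulin-binding protein Nrgn was uneven among cholinergic sums, with 1266 CPM in female 1 and 94.7 to 304 CPM in the other four, against 0 to 77.8 CPM (3.14 ± 0.51, edgeR adjusted p = 1.7e-04). Rapgef4, a cyclic AMP-activated exchange factor, was at 1886 ± 308 against 340.2 ± 145 CPM (2.54 ± 0.21, edgeR adjusted p = 4.6e-08). Its antisense neighbour Rapgef4os1 (chr2:72097603-72148796, minus strand, inside Rapgef4 at chr2:71981240-72257474, plus strand) was higher as well (1.96 ± 0.30, edgeR adjusted p = 9.3e-05) and is named here after its value was seen. No source used here says whether the counting used strand, and without it the pair cannot be told apart.

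The 15 with the lowest fold change were Pde11a, Col16a1, Tac1, Tenm3, Sorcs3, Tnfrsf11a, Cck, Kcng4, Rxfp2, Myo3b, Lin7a, Stum, Oprm1, Dpyd and Pde10a. In all but Cck the groups did not overlap, where 3.06% of all genes tested did not overlap in this direction. These genes were picked in the same way, so this too is a description. Genes near 0 in cholinergic sums, such as Pde11a and Col16a1, passed the filter through the non-cholinergic group. Pde11a, a phosphodiesterase of cyclic AMP and cyclic GMP, had 3 UMIs in cholinergic and 171 in non-cholinergic sums. Its level was 0, 0, 4.55, 0 and 6.11 CPM against 565, 87.5, 131, 106 and 472 CPM, with means of 2.13 ± 2.97 and 272 ± 227 CPM (SD, n = 5) and a fitted log2 fold change of -6.84 ± 0.48 (edgeR adjusted p = 5.5e-09), or -5.32 in the female libraries alone. Pooled over libraries, which weights them by their UMIs, the level was 244-fold lower (95% exact interval 82.2 to 1196, counting error only). Tenm3, a teneurin that matches axons to their targets, was at 76.5, 106, 157, 246 and 67.2 CPM against 1682, 1021, 1528, 1356 and 1751 CPM (-3.61 ± 0.23, edgeR adjusted p = 3.9e-09). The sorting receptor Sorcs3 (-3.54 ± 0.31, edgeR adjusted p = 7.9e-08), the modifier potassium channel subunit Kcng4 (-3.26 ± 0.31, edgeR adjusted p = 2.2e-07) and Tnfrsf11a, the RANK receptor (-3.48 ± 0.41, edgeR adjusted p = 4.6e-06), followed.

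Receptors for the fast transmitters differed in part. Of 26 glutamate receptor genes, 18 were tested, 1 was called higher and 6 lower, with a median of -0.38 (all genes tested: 5.23% higher, 5.40% lower). The AMPA subunit Gria3 was higher at 125 ± 8.86 against 34.2 ± 20.4 CPM (2.10 ± 0.36, edgeR adjusted p = 2.9e-04). It fell to 0.16 under a gate of 2 of the 5 genes (edgeR adjusted p = 0.819), and its call was lost in the male libraries alone (1.82, 0.0938). The metabotropic receptors Grm8 (-2.04 ± 0.39, edgeR adjusted p = 0.0011) and Grm5 (-1.07 ± 0.17, edgeR adjusted p = 1.9e-04), the NMDA subunit Grin2b (-1.24 ± 0.19, edgeR adjusted p = 8.9e-05) and the delta receptor Grid1 (-1.22 ± 0.19, edgeR adjusted p = 1.1e-04) were lower. The Grm8 call was lost without the library block (-1.82, edgeR adjusted p = 0.0985) and in the male libraries alone (-1.36, 0.271). Those of Grm5, Grin2b and Grid1 were lost in the male libraries alone too. Gabbr2, a subunit of the GABA-B receptor, was higher at 2847 ± 417 against 1492 ± 473 CPM with no overlap (0.99 ± 0.13, edgeR adjusted p = 2.3e-05), while its partner Gabbr1 stayed under the fold required (0.45 ± 0.14, edgeR adjusted p = 0.045). Of 19 GABA-A and glycine receptor subunits, 5 were tested, and Gabra2 was among those called lower (-0.74 ± 0.16, edgeR adjusted p = 0.00228). The Gabra2 call was lost without the library block, in the female or the male libraries alone and with a minimum of 20 nuclei. Of 28 monoamine receptors 3 were tested and Htr2c was called lower (-1.16 ± 0.37, edgeR adjusted p = 0.0465), a call lost without male 2, female 2 or female 5 (0.226, 0.175 and 0.149).

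Ion channel genes were called in both directions. Of 67 potassium channel genes and partners, 24 were tested, 4 were called higher and 9 lower (all genes tested: 5.23% higher, 5.40% lower). The channel-interacting protein Kcnip1 was higher at 2944 ± 366 against 1141 ± 151 CPM (1.37 ± 0.13, edgeR adjusted p = 1.8e-07), and its relative Kcnip4 was lower at 1375 ± 1224 against 3697 ± 2707 CPM (-1.73 ± 0.29, edgeR adjusted p = 2.9e-04). Kcnip1 did not overlap between groups, whereas Kcnip4 varied widely in both. The Kcnip4 call was lost with a minimum of 5 nuclei (-0.43, edgeR adjusted p = 0.627) and in the deposited cluster (-0.98, 0.0507). It was also lost without the library block (-1.43, 0.306) and in the male libraries alone (-1.43, 0.212). The large-conductance calcium-activated channel Kcnma1 was higher (17543 ± 2873 against 10162 ± 2486 CPM, 0.81 ± 0.11, edgeR adjusted p = 2.0e-05), as was the voltage-gated subunit Kcna2 (1.34 ± 0.24, edgeR adjusted p = 4.8e-04). The fast voltage-gated subunit Kcnc2 (-1.69 ± 0.28, edgeR adjusted p = 1.9e-04) and Kcnmb2, a beta subunit of the large-conductance channel (-1.67 ± 0.25, edgeR adjusted p = 9.0e-05), were lower. For Kcnc2 the groups overlapped. Its call was lost without the library block (-1.63, edgeR adjusted p = 0.114) and with a minimum of 5 or of 20 nuclei. Of 36 sodium, chloride and TRP channel genes and related transporters, 20 were tested, 4 were called higher and 3 lower, with Ano3 at 2.07 ± 0.22 (edgeR adjusted p = 9.8e-07) and the sodium channel Scn9a at -1.99 ± 0.27 (edgeR adjusted p = 2.5e-05). Of 22 calcium and HCN channel genes, 8 were tested and 2 were called, Cacna1d (0.61 ± 0.16, edgeR adjusted p = 0.0117) and Cacna1e (0.57 ± 0.14, edgeR adjusted p = 0.0102). The Cacna1d call was lost without male 2 or male 3 (edgeR adjusted p = 0.0664 and 0.0689), and the Cacna1e call without male 3 or female 5 (0.0595 and 0.0555).

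Of 59 transcription factors listed, 28 were tested, 8 were called higher and 3 lower, with a median of 0.18 (all genes tested: 5.23% higher, 5.40% lower). Besides Lmo3 and Etv1, Tcf4 (444 ± 114 against 117 ± 28.9 CPM, 1.86 ± 0.23, edgeR adjusted p = 1.1e-05), Nfia (1.81 ± 0.32, edgeR adjusted p = 4.3e-04) and Nfib (1.38 ± 0.22, edgeR adjusted p = 1.4e-04) were higher. Sox5 was lower (-0.96 ± 0.16, edgeR adjusted p = 2.5e-04), but turned to 0.03 under a gate of 2 of the 5 genes and lost its call without the library block, in the male libraries alone and with a minimum of 20 nuclei. Lhx9 was called lower (-0.83 ± 0.21, edgeR adjusted p = 0.0115), but not without male 3, female 1 or female 2 (0.0788, 0.0508 and 0.0718).

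Adhesion and synaptic organizer genes were called lower in 19 of 38 tested and higher in 3, of 67 listed, with a median of -0.71, where 5.40% of all genes tested were called lower and 5.23% higher. Besides Tenm3 and Sorcs3, the cadherin Cdh12 (-2.61 ± 0.23, edgeR adjusted p = 1.0e-07) and the neurexin Nrxn3 (-2.37 ± 0.40, edgeR adjusted p = 2.4e-04) were lower. Cdh10 (2.06 ± 0.31, edgeR adjusted p = 8.3e-05), Cdh20 (1.67 ± 0.41, edgeR adjusted p = 0.00842) and Sorcs2 (1.07 ± 0.19, edgeR adjusted p = 5.2e-04) were higher. Cadherins and Sorcs proteins therefore had members on each side. The Nrxn3 call was lost without the library block and in the male libraries alone. The Cdh20 call was lost without the library block, in the male libraries alone, with a minimum of 20 nuclei and with DESeq2. The Sorcs2 call was lost in the male libraries alone and with a minimum of 20 nuclei. Among 59 guidance ligands and receptors, 25 were tested, 3 were called higher and 4 lower. Robo2, a receptor of the same family as the gate gene Robo3, was lower (-2.17 ± 0.29, edgeR adjusted p = 2.3e-05), as were the plexin Plxna2 (-2.31 ± 0.30, edgeR adjusted p = 1.3e-05) and the ephrin receptor Ephb1 (-1.39 ± 0.21, edgeR adjusted p = 6.7e-05). The Ephb1 call was lost in the male libraries alone and under a gate of 2 of the 5 genes.

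Signalling genes were called in both directions. Of 46 genes of cyclic nucleotide and calcium signalling, 22 were tested, 2 were called higher and 10 lower, with a median of -0.46. The shares over all genes tested were 5.23% higher and 5.40% lower. Prkcb, a protein kinase C, was higher at 896 ± 146 against 291 ± 60.1 CPM (1.66 ± 0.16, edgeR adjusted p = 4.2e-07), as was Rgs6, a regulator of G-protein signalling (1.02 ± 0.13, edgeR adjusted p = 1.6e-05). Pde10a was lower at 105 ± 89.1 against 616 ± 272 CPM (-2.65 ± 0.23, edgeR adjusted p = 6.2e-08). Of 39 steroid, growth factor and insulin genes, 16 were tested, 3 were called higher and 3 lower. The neuregulin receptor Erbb4 was at 507, 950.3, 739, 1013 and 397 CPM in cholinergic and 2777, 2119, 2583, 2659 and 2732 CPM in non-cholinergic sums (-1.91 ± 0.19, edgeR adjusted p = 4.6e-07). The growth factors Fgf10 (2.58 ± 0.43, edgeR adjusted p = 2.7e-04) and Fgf1 (1.69 ± 0.27, edgeR adjusted p = 1.6e-04) and the binding protein Igfbp7 (3.10 ± 0.38, edgeR adjusted p = 7.8e-06) were higher. Of 42 genes of vesicle release and dense-core vesicles, 32 were tested, 2 were called higher and 7 lower, the latter including the prohormone convertase Pcsk1 (-1.53 ± 0.27, edgeR adjusted p = 5.1e-04) and the synaptotagmin Syt13 (-1.10 ± 0.22, edgeR adjusted p = 0.00164). The Pcsk1 call was lost in the female libraries alone (edgeR adjusted p = 0.0653), in the male libraries alone (0.0529) and under a gate of 2 of the 5 genes. The Syt13 call was lost in the male libraries alone (0.32).

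**Figure D4:**
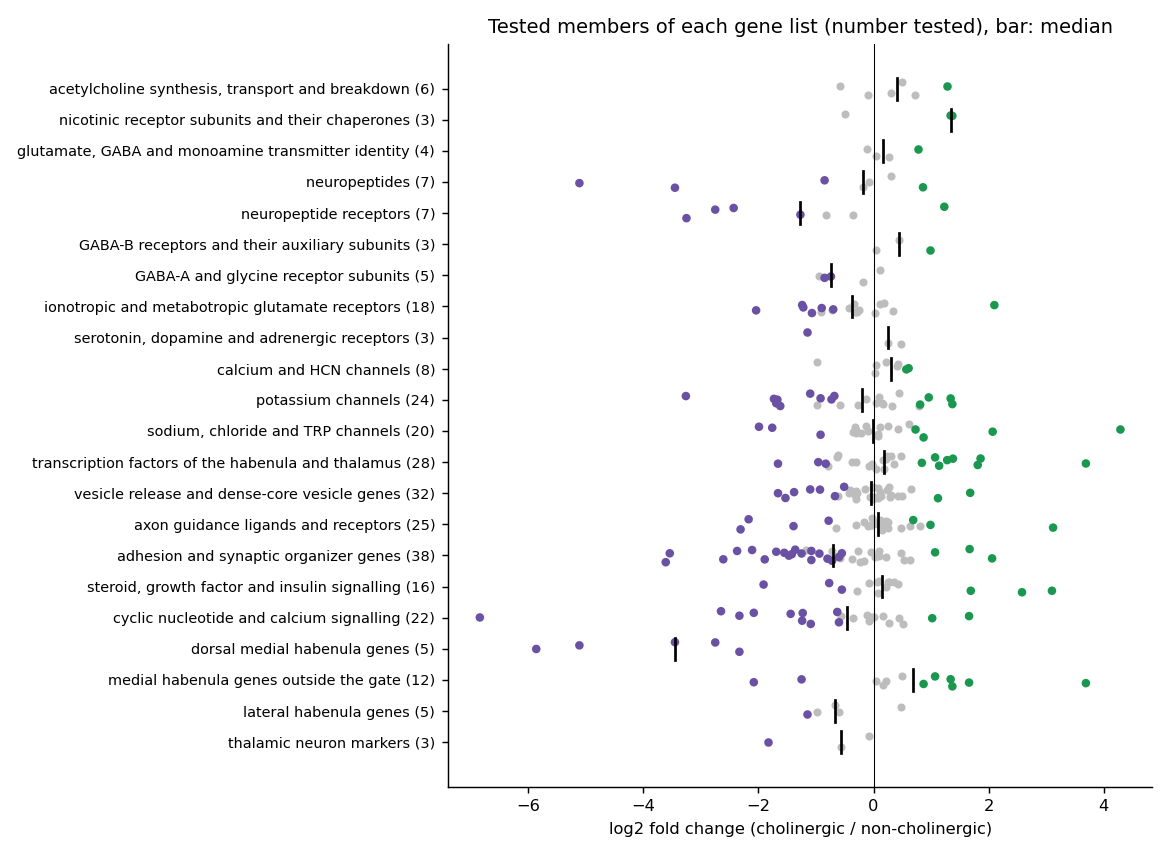
Each point is a tested member of a gene list, at its log2 fold change between cholinergic and non-cholinergic nuclei, and the black bar is the list's median. Green and purple points were called higher and lower. The 5 dorsal medial habenula genes that passed the filter, all but Oprm1 through the group in which they were high, lie below 0. The adhesion list has 19 of its 38 tested members called lower.

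Markers of other cells are given beside these results, and their part in them was not tested. Of 10 lateral habenula genes 5 were tested and 1, Htr2c, was called lower. Gap43 was not called (-0.67 ± 0.28, edgeR adjusted p = 0.161). The summed level of the list ran from 739 to 1100 CPM in cholinergic and from 912 to 1274 CPM in non-cholinergic sums. Of 9 thalamic markers 3 were tested and 1, Adarb2, was lower (-1.84 ± 0.19, edgeR adjusted p = 7.9e-07), with sums of 607 to 1273 against 1064 to 1962 CPM. GABAergic markers reached 31.7 and 68.0 CPM at most in the cholinergic and non-cholinergic sums, 2 of the 8 were at 0 in all cholinergic and 5 in all non-cholinergic sums. Astrocyte markers summed to 205 to 550 against 222 to 385 CPM, oligodendrocyte markers to 87.1 to 214 against 0 to 204 CPM and microglia markers to 78.0 to 208 against 117 to 261 CPM. Only 2 of 8 astrocyte, 0 of 8 oligodendrocyte and 1 of 6 microglia markers were tested, and none of those tested was called. Of 8 genes of forebrain and brainstem cholinergic neurons 4 had UMIs and only 1 was tested, which was not called.

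Shares of nuclei were then compared at equal depth, after thinning each nucleus to 2000 UMIs, which kept 489 of 492 cholinergic, 97 of 101 single-UMI and 141 of 145 non-cholinergic nuclei. Tac1 had a UMI in 1.02% of cholinergic and 41.8% of non-cholinergic nuclei, against 1.24% of oligodendrocytes and 1.26% of the neurons with none of the 5 gate genes, called other neurons here. Before thinning these shares were 3.66, 52.4, 1.54 and 5.35%. Col16a1 had a UMI in 0.818% of cholinergic and 26.2% of non-cholinergic nuclei (2.29% of oligodendrocytes and 2.96% of other neurons), so that for both genes the cholinergic share was under that of either comparison. Other neurons held several of the lower genes too. Oprm1 had a UMI in 9.20% of cholinergic and 39.7% of non-cholinergic nuclei and in 34.2% of other neurons. In the same order Tenm3 was at 8.38, 64.5 and 64.9%, Calb1 at 2.25, 12.1 and 14.2%, and Calb2 at 13.5, 34.8 and 24.2%. Cck was rarer in other neurons, at 4.70, 46.1 and 15.7%. In oligodendrocytes the shares were 8.11% for Oprm1, 14.55% for Tenm3, 9.54% for Calb1, 30.03% for Calb2 and 10.71% for Cck. The cholinergic shares of Tenm3, Calb1, Calb2 and Cck lay below these. The non-cholinergic shares of Calb1 and Calb2 lay only a little above them. Lmo3 had a UMI in 43.1% of cholinergic and 7.09% of non-cholinergic nuclei (0.557% of oligodendrocytes). Synpr had one in 74.0% and 12.1%, and the non-cholinergic share lay between the 8.09% of other neurons and the 20.1% of oligodendrocytes. Piezo2 was at 22.1% and 1.42%, the latter under the 1.89% of other neurons and the 2.04% of oligodendrocytes. Before thinning, Col16a1, Lmo3, Synpr and Piezo2 had a UMI in 2.24, 75.4, 90.5 and 54.7% of cholinergic and 43.4, 9.66, 16.6 and 5.52% of non-cholinergic nuclei. The nuclei compared held a median of 10206.5 UMIs in the cholinergic group, 4950 in the non-cholinergic group and 2321 in oligodendrocytes before thinning.

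**Figure D5:**
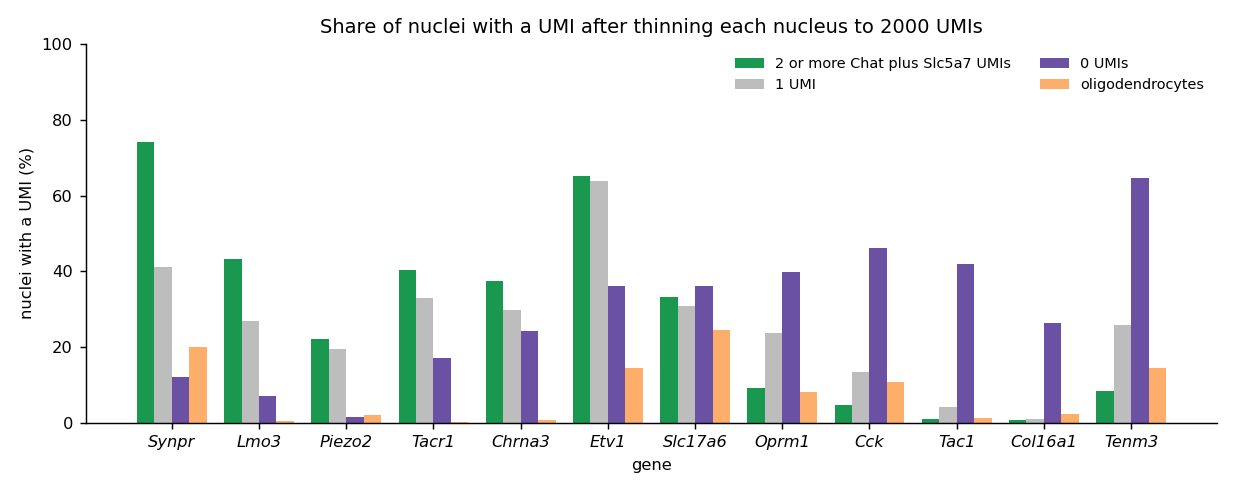
Bars give the percent of nuclei with a UMI of each gene after thinning to 2000 UMIs, in gated nuclei with 2 or more, 1 and 0 UMIs of Chat plus Slc5a7 and in oligodendrocytes for comparison. Nuclei of all 10 libraries are pooled with no pairing. Lmo3 falls from 43.1% through 26.8% to 7.09% across the 3 habenula groups, and Tac1 rises from 1.02% through 4.12% to 41.8%.

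Nuclei with a single UMI of Chat plus Slc5a7, which the comparison did not use, lay between the groups in these shares. Lmo3 was at 26.8%, Synpr at 41.2% and Tac1 at 4.12% of them. As CPM of all UMIs with no scaling between sums, averaged over the 5 libraries, Oprm1 was at 76.3 ± 9.06 in cholinergic nuclei, 133 ± 107 in those with exactly 2 UMIs, 241 ± 71.1 in those with 1 UMI and 505 ± 89.7 in non-cholinergic nuclei. Tenm3 followed the same order, at 107 ± 59.4, 244 ± 186, 336 ± 292 and 1189 ± 230 CPM. Tacr1 did not: it stood at 226 ± 70.7, 247 ± 122, 259 ± 115 and 94.9 ± 72.1 CPM, with single-UMI nuclei at the level of the cholinergic ones. These values rest on 281, 49, 70 and 109 nuclei and were not tested.

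The 5 libraries left out of the comparison held 211 cholinergic but only 36 non-cholinergic nuclei. Summed over these libraries, 197 of the 215 genes called higher were higher in cholinergic nuclei (91.6%, against 47.0% of all genes tested), and 196 of the 222 called lower were lower (88.3%, against 53.0%). These sums weight the libraries by their UMIs, most of which came from male 1 and male 4. With the 5 libraries weighted equally, 201 (93.5%, against 49.4%) and 206 (92.8%, against 50.6%) had the same direction. Cck, Oprm1, Col16a1, Calb2 and Tenm3 were lower in each of the 5 libraries. Synpr, Lmo3, Piezo2, Chrna3 and Nrgn were higher in each, Etv1 in 4 of 5 and Chrnb4 and Tacr1 in 3 of 5. Tac1 was lower in 4 of 5 but hardly present in the non-cholinergic nuclei of male 1 and male 4, at 0 and 34.8 CPM, where female 3, female 4 and female 6 had 1077, 1363 and 843 CPM. Pde11a likewise had 0 CPM in both of these male sums and 219.9 to 248 CPM in the female ones. Slc17a7 was higher in only 2 of the 5, and its pooled level was 168 CPM in cholinergic and 207 CPM in non-cholinergic nuclei. These sums come from 4 to 97 nuclei each and were not tested.

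Whether the difference between the groups itself differed between the female and the male libraries was tested as an interaction, with 3 and 2 libraries. None of 4111 genes passed the adjusted threshold in edgeR (0%), and 227 had an unadjusted p under 0.05. With female libraries alone, 129 genes were called higher and 121 lower, and with the 2 male libraries alone 72 and 70. Sex, annotation, depth and processing cannot be told apart in this contrast. Of 20457 different barcodes, 46 were found in more than 1 library, and none of these was in either group.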

How the data were processed

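Single nuclei were profiled with a 3′ droplet kit. The deposited files hold raw UMI counts per gene and nucleus, made by the authors with Cell Ranger (version 6.1.1 in the submitters' processing notes, another in the methods) on mm10, and a table of nuclei with the authors' cluster names and the percent of mitochondrial UMIs they computed. No source used here gives the treatment of introns or strand. The files of the male libraries hold no UMIs of the 13 mitochondrial genes. Of that table, 21 metadata columns were not used.

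The members, gene lists and tests were chosen with earlier results of these data known. UMIs were summed per library and group (10 or more nuclei), filtered by filterByExpr, scaled by TMM and tested with edgeR 4.0.16 (R 4.3.3) with library as a block, and p-values were adjusted by Benjamini-Hochberg over all 4111 genes tested. The 2 sums of a library share its mice, so the pairing comes from the design. Genes were named when among the 15 highest or 15 lowest calls at 20 CPM or more with 1 sign in every pair, when among the top 4 calls of a list in either direction, or when on a fixed list of habenula genes. Predicted genes were left out of the first of these. Libraries are pools of mice. With library as a block, p-values rest on the spread of the paired difference among libraries, estimated in part from all genes. Doublets were called with Scrublet in scanpy 1.11.5 (178 nuclei, 0.868%) and kept in the main comparison. The depth of the sums sets the precision of low genes, and intervals for counts are exact binomial. The procedure was tried on simulated sums with known changes. These had a fixed dispersion and the same mean profile in every library, so they do not show how it performs where libraries differ. Alternatives were other scalings, filters, thresholds, gates, libraries and DESeq2 1.42.0. Values of a few single genes are not reported here.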

Additional observations from a re-analysis of the deposited data

Results flagged for a closer look

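Per-library log2 ratios of cholinergic to non-cholinergic CPM, with 5 added to both, were screened for libraries far from the others. The gated share of neurons was screened as well, and 5 of 115 values were found. Dixon's criterion at the 95% level marks about 1 in 20 groups by chance. Col16a1 had a log2 ratio of -3.35 in male 3 (2.17 against 68.0 CPM) and of -5.21 to -4.79 in the other libraries. Rxfp2 had -4.60 in male 2 (0 against 116 CPM) and -2.70 to -2.32 elsewhere. Kcnip3 had 4.41 in female 2 (101 against 0 CPM) and 0.46 to 1.24 elsewhere. Prkcb had 1.32 in female 2 and 1.65 to 1.76 elsewhere. Gated nuclei made up 17.86% of neurons in female 1 and 1.79 to 6.37% in the other female libraries. The male libraries, at 3.06 to 25.06%, were not part of that comparison.

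Chat plus Slc5a7 UMIs of 2 or more also occurred outside the gate, above the upper bound in oligodendrocytes (0.293%). They were counted in 30 of the 184 nuclei of the deposited neuron cluster numbered 6 that failed the gate (16.3%, 95% exact binomial interval 11.3 to 22.4%, median 2470 UMIs). In cluster 5 they were counted in 24 of 944 (2.542%, interval 1.64 to 3.76%, median 6144.5 UMIs), where Slc5a7 had a UMI in 8.26% and Chat in 0.953% of nuclei. In cluster 7 they were counted in 7 of 826 (0.8475%, interval 0.341 to 1.74%, median 11890 UMIs), and in oligodendrocyte precursors (OPCs) in 5 of 473 (1.057%, interval 0.344 to 2.45%, median 3658 UMIs), where Slc5a7 had a UMI in 6.55% and Chat in 0.211% of nuclei.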

How the results depend on the processing

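Against 215 genes higher and 222 lower, leaving out each library in turn gave 157 to 201 higher and 152 to 209 lower, and no call tested there changed its sign. Without the replicate block, that is with the paired libraries taken as unpaired, 121 and 123 were called, all of them among the main calls, and 30 of 103 named calls were lost, Chrna3, Slc17a7, Tacr1, Etv1 and Gng8 among them. No filter on low counts gave 340 higher, with the median of the same 4111 genes moved to 0.13, and DESeq2 gave 170 and 178. Female libraries alone gave 129 and 121, libraries with no sex in the label alone (2 pairs) 72 and 70, nuclei thinned to 2000 UMIs 84 and 83 of 724 tested, a minimum of 5 nuclei 139 lower and a minimum of 20 nuclei 139 higher. A gate of 2 of the 5 genes gave 474 and 572 and let in 324 non-cholinergic nuclei. Under it, Calcrl (0.08) and Sox5 (0.03) reversed, and 10 of 426 calls tested there did. The deposited cluster held 238 non-cholinergic nuclei, and a gate of 4 genes left 56 and only 1 library with both groups, so that no test was run. Thinning took the share of gated nuclei with a UMI of Chat or Slc5a7 from 80.35% to 55.57%. The interaction with library set had 0 calls in edgeR, 5 with no filter (Tshz2, Grm7, Hbb-bs, Hba-a1 and Rbfox1) and 2 with depth-matched nuclei (Rbfox1 among them). The cause of these shifts was not tested. With the 2 male pairs alone 51 named calls were lost, and with a minimum of 20 nuclei 28 were. Of 103 named calls, 46 held under every alternative in which they were tested. Of the 30 leading genes 24 did, and the other six (Nfam1, Nrgn, Ndst3, Fgf10, Myo3b and Lin7a) were lost with the 2 male pairs alone, Ndst3 also with the gate of 2 genes. In non-cholinergic sums of 46387 UMIs a gene at 20 CPM amounts to about 1 UMI, so low genes were not detectable at this depth.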

Other observations

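Tenm3 and 4 long non-coding RNAs that lie beside it on chromosome 8 were lower together in cholinergic nuclei. These RNAs were picked after their values were seen, being predicted genes that the rule for named genes leaves out. The lincRNA Gm45321 (chr8:49818937-49949006, plus strand, GRCm38) was at 2.64, 9.39, 11.4, 0 and 6.11 CPM in the cholinergic sums of male 2, male 3, female 1, female 2 and female 5, and at 413, 126, 450.5, 479 and 1080.4 CPM in the non-cholinergic sums, with no overlap (log2 fold change -5.34 ± 0.36 SE, edgeR adjusted p = 4.4e-09). C130073E24Rik (chr8:50743291-50916997, minus strand) was at 63.3 ± 33.4 against 1516 ± 849 CPM (-4.32 ± 0.31, edgeR adjusted p = 6.0e-09). Gm45323 (chr8:49959483-50013384, minus strand) had a log2 fold change of -4.30 ± 0.33 and 4930555F03Rik (chr8:49370886-49548994, plus strand) of -4.50 ± 0.26 (edgeR adjusted p = 1.4e-08 and 8.6e-10). With Tenm3 (chr8:48227682-48843951, minus strand, -3.61 ± 0.23) they made up all 5 genes tested within 2 Mb of Gm45321, and all 5 were lower in 5 of 5 libraries, where 5.40% of all genes tested were called lower. The window was set on the same data, so this is a description and was not tested.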
